A study of Mus musculus with 6 samples.

Results

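miR-221 and miR-222 are a pair of microRNAs (miRNAs) cut from neighbouring hairpins on the mouse X chromosome. Their members here were the 4 mature mouse entries whose names begin with mmu-miR-221 or mmu-miR-222, namely mmu-miR-221-3p, mmu-miR-221-5p, mmu-miR-222-3p and mmu-miR-222-5p (mmu stands for mouse and is left out below), of 1963 distinct mouse mature sequences in the count table. The suffix names the side of the hairpin, 5p for the arm before the loop and 3p for the arm after it. The members were chosen by name and not by a cut on any measured value, though earlier results of these data were known.

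The study profiled small RNA of mouse liver after injection of adeno-associated virus serotype 9 (AAV9), a gene delivery vector. Its 2 groups, of 3 libraries each, were labelled AAV-Tnnt2-Cre and AAV-Tnnt2-Cre-miR122, so both carried the Cre recombinase with the promoter of the cardiac troponin T gene Tnnt2, and the second also carried an element named for miR-122, of unstated function. The stated purpose was to learn what the vector with this element does to liver miRNAs. The labels give no dose, time, strain, sex or age, and do not say whether a library is 1 animal. Counts of 1 library, Cre-miR122 replicate 2, were used here, so no difference between the groups was tested and no value below has a replicate.

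miRNAs are cut from hairpin transcripts by the nuclease Drosha in the nucleus and Dicer in the cytoplasm. One strand of the resulting duplex is usually kept in an Argonaute protein, where its seed, bases 2 to 8 from the 5′ end, pairs with target mRNAs. The 3′ end can be trimmed or extended without changing the seed. miR-221-3p and miR-222-3p share a seed and are known to repress Cdkn1b and Cdkn1c, which encode the cell cycle inhibitors p27 and p57, and they have been linked to hepatocyte proliferation, liver tumours and vascular smooth muscle growth.

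On the GRCm38 (mm10) build, chromosome X holds Mir221 (ENSMUSG00000065422.1) from 19146294 to 19146388 and Mir222 (ENSMUSG00000065471.1) from 19146893 to 19146971, both on the minus strand. Mir222 therefore comes first in the direction of transcription, and 504 bases separate the hairpins. No other annotated gene overlaps them, and the next gene upstream is Gm14636, a noncoding transcript on the same strand that ends 10009 bases away. Both hairpins are shown to place the arms, which are in capitals as far as the mouse entries reach (5′ to 3′, DNA letters).
Mir221: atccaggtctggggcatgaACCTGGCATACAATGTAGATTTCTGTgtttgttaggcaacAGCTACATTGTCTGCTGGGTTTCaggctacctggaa
Mir222: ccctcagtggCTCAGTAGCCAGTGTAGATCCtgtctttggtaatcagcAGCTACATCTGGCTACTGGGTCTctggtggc

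The mature sequences are given with the seed in capitals, because the seed is what the 3p arms share and the 5p arms do not.
miR-221-3p: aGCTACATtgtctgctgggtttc
miR-222-3p: aGCTACATctggctactgggtct
miR-221-5p: aCCTGGCAtacaatgtagatttctgt
miR-222-5p: cTCAGTAGccagtgtagatcc
Counted from the 5′ end, the 3p arms were identical over their first 8 bases and at 3 of the 15 bases after them. The 5p arms were identical at 2 of 21 positions and had different seeds. No gap or shift was allowed, and both pairs of arms also match at shifted positions, which these counts leave out. Among all mouse entries, miR-1928 was the only other one with the seed of the 3p arms, and it had 0 reads. An entry with 0 reads may still be present below a floor set at 3 reads, or 0.450 reads per 1000000 mouse reads. This floor is an approximate limit and not one of the exact intervals given below. The reads bearing this seed as mouse entries were thus those of miR-221-3p and miR-222-3p. RefSeq (GRCm38.p6) held 3 of the 4 mature sequences, all identical to the deposited ones. miR-222-5p was not matched.
On the same build miR-221-3p spans 19146307 to 19146329, miR-221-5p 19146344 to 19146369, miR-222-3p 19146901 to 19146923 and miR-222-5p 19146941 to 19146961. Each was found at 1 place among the 2202 annotated mouse hairpins.

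The library held 6661069 reads on mouse entries, and 546 of the 1963 mouse sequences had at least 1 read. A level is given as RPM, here reads per 1000000 of these mouse reads. A read stands for a whole small RNA, so levels are not divided by length. The table also lists mature miRNAs of other species, and some of these are the mouse hairpin's own sequence with another end. Such an end form was added to a mouse arm in a second value, "with end forms", whose total was 8032208 reads. Intervals in parentheses are exact 95% intervals for counting error only, and PCR copies were counted as reads. The hepatocyte markers miR-122-5p, miR-148a-3p, miR-192-5p and miR-194-5p were all read and held 62.6% of mouse reads. Most of this share was miR-148a-3p alone. Striated muscle markers, unusual for a liver label, held 15.8%, with 5 of 6 read and miR-208a-3p at 0. Apart from miR-148a-3p, each hepatocyte marker had fewer reads than the muscle marker miR-1a-3p. The part of muscle RNA in the levels of miR-221 and miR-222 was not tested, and in bulk tissue fewer cells of a type and less RNA per cell cannot be told apart.

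All 4 arms were detected, and all were minor components of this library. Together their mouse entries held 390 reads, 58.5 RPM (52.9 to 64.7), and 715 reads or 89.0 RPM (82.6 to 95.8) with end forms. miR-221-3p led by either count, while the place of miR-222-3p depended on whether its longer forms were counted.

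miR-221-3p, the main strand of its hairpin, had 340 reads, 51.0 RPM (45.8 to 56.8), and ranked 107 among mouse sequences. With end forms it had 420 reads, 52.3 RPM (47.4 to 57.5), at rank 129. Its share was therefore nearly the same by both counts, with the 2 intervals overlapping. The mouse entries next above it were miR-30e-5p with 358 reads and miR-1843b-5p with 346, and those next below were miR-146b-5p with 337 and miR-380-5p with 335. With end forms its neighbours were miR-370-3p at 423 and miR-494-3p at 421 reads above it, and miR-410-3p at 407 and miR-152-5p at 402 below it.

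miR-222-3p, the partner with the same seed, had only 25 reads by its mouse entry, 3.75 RPM (2.43 to 5.54), at rank 244. With end forms it had 249 reads, 31.0 RPM (27.3 to 35.1), at rank 155. The 2 intervals lie far apart: 224 of its reads were counted for entries of other species, a 9.96-fold rise on counting them. By mouse entries its nearest neighbours included miR-339-3p and miR-362-3p with 27 reads each and miR-133a-5p and miR-224-5p with 24 each. Further sequences had 27 or 24 reads, and 4 others tied with it. With end forms it stood between miR-320-3p with 255 reads and miR-195a-3p with 247, and next to these were miR-543-3p with 264 and miR-487b-3p with 235.

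The 5p arms, the minor strands of both hairpins, were lower. miR-221-5p had 23 reads, 3.45 RPM (2.19 to 5.18), or 38 with end forms, 4.73 RPM (3.35 to 6.49). By mouse entries, the sequences just above it included miR-224-5p and miR-455-3p with 24 reads each. Those just below it included miR-130a-5p and miR-223-5p with 22 each, and 1 other sequence tied with it. miR-222-5p had 2 reads, 0.300 RPM (0.0364 to 1.08), or 8 with end forms, 0.996 RPM (0.430 to 1.96). It shared its 2 reads with 50 other mouse sequences, so it has no closer neighbours by that count. With end forms, the sequences next above it included miR-667-5p and miR-7a-1-3p with 9 reads each. Those next below it included miR-1197-3p and miR-144-3p with 7 each, and other sequences shared its 8 reads.

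By mouse entries the order was miR-221-3p, then miR-222-3p and miR-221-5p without a difference beyond counting error, then miR-222-5p. The ratio of miR-222-3p to miR-221-5p was 1.09 (0.592 to 2.0). With end forms the order was the same, but these middle members separated at 6.55 to 1 (4.64 to 9.48).

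**Figure D1:**
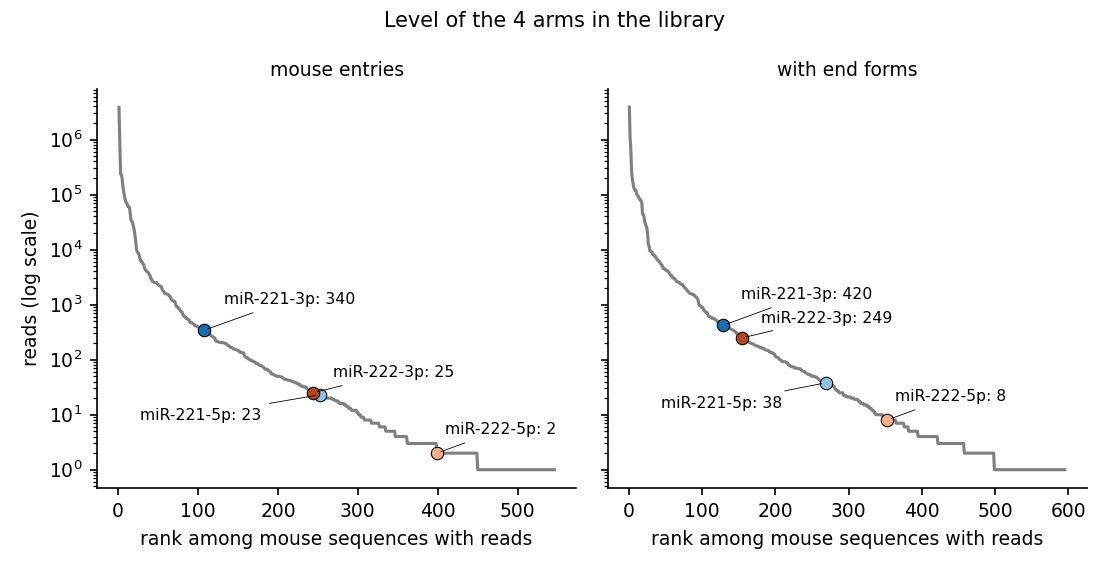
Reads (log scale) of every mouse sequence with reads against its rank (grey line), by mouse entries (left) and with end forms (right), with the 4 arms as coloured points. miR-222-3p moved from 25 reads, beside miR-221-5p, to 249 reads, close to miR-221-3p with 420.

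The pair is cut from hairpins 504 bases apart, and the ratio of their 3p arms depended on the counting. By mouse entries miR-221-3p had 13.6 reads per read of miR-222-3p (9.06 to 21.3). With end forms the ratio was 1.69 (1.44 to 1.98), still above 1 by more than counting error. Summing both arms of each hairpin gave 13.4 for Mir221 over Mir222 (9.09 to 20.7), and 1.78 (1.53 to 2.08) with end forms. Adapter ligation can favour some sequences, so a ratio of reads is not a ratio of molecules.

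The summed hairpins were set beside other neighbours. In all, 34 adjacent pairs lay on the same strand within 10000 bases of each other, with at least 100 reads for each hairpin. Only arms found in no other hairpin were summed, so an arm shared by several hairpins was left out. Mir194-2 thus had 194 reads without the 18596 of miR-194-5p, and Mir192 held 424 times as many. With end forms, the larger sum of a pair was a median of 4.57 times the smaller, from 1.17 to 825. By these sums the miR-221 and miR-222 pair was among the more even ones, with 6 pairs closer to equal and 27 further from it. By mouse entries alone the median was 8.0, with 21 pairs more even than this one and 12 less even. Some pairs share a hairpin with another pair, and this is a description without a test.

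**Figure D2:**
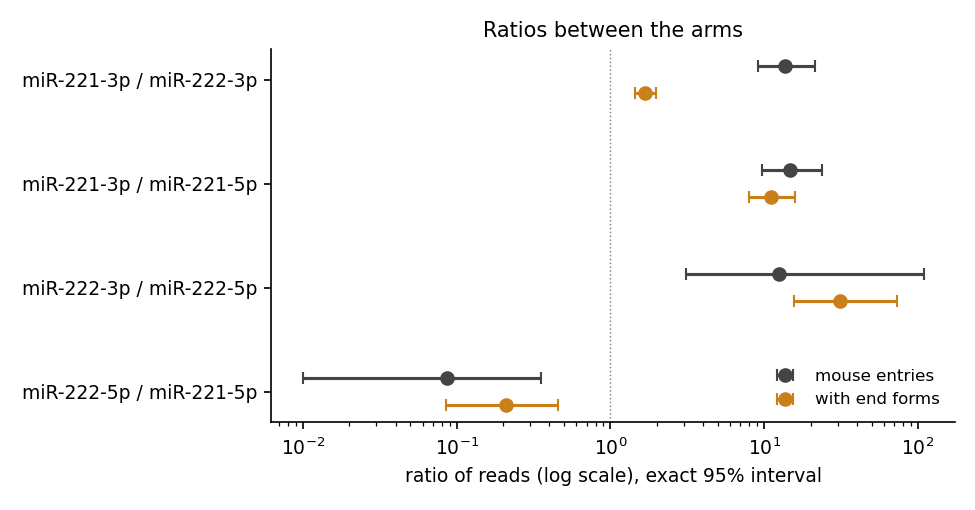
Ratio of reads between arms (log scale), by mouse entries (dark) and with end forms (orange), with exact 95% intervals for counting error and a dotted line at 1. The ratio of miR-221-3p to miR-222-3p fell from 13.6 to 1.69, and the intervals of the other 3 ratios overlapped between the counts.

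Both hairpins were read mainly from the 3p arm. For Mir221 the 3p arm held 340 of 363 reads by mouse entries, 93.7% (90.6 to 95.9), and 420 of 458 with end forms, 91.7% (88.8 to 94.1). For Mir222 it held 25 of 27, 92.6% (75.7 to 99.1), and 249 of 257 with end forms, 96.9% (94.0 to 98.6). With end forms the intervals of both hairpins overlapped only between 94.0 and 94.1%. miR-221-3p had 14.8 reads per read of miR-221-5p (9.69 to 23.6), or 11.1 (7.92 to 15.8) with end forms. miR-222-3p had 12.5 per read of miR-222-5p (3.12 to 109), or 31.1 (15.6 to 72.9) with end forms, on only 2 and 8 reads of the 5p arm.

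Most other hairpins were more one-sided. The comparison used 134 hairpins with both arms listed, each arm found in no other hairpin, and at least 100 reads with end forms. Among them the major arm held a median of 99.1% of the reads. Its share was higher than that of Mir221 in 98 of them and higher than that of Mir222 in 87. The 3p arm was the major one in 63 of the 134 and the 5p arm in 71. Between the 5p arms, miR-222-5p had 0.0870 reads per read of miR-221-5p (0.00994 to 0.352), or 0.211 (0.0848 to 0.458) with end forms, so Mir221 also led on this arm.

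The gap between the counts came from the 3′ end of miR-222-3p. Its forms in the table are given with the bases beyond the mouse entry in capitals. All of them match the Mir222 hairpin, so a templated base and the same base added later cannot be told apart.
20 nt: agctacatctggctactggg
21 nt: agctacatctggctactgggt
22 nt: agctacatctggctactgggtc
23 nt, mouse entry: agctacatctggctactgggtct
24 nt: agctacatctggctactgggtctC
25 nt: agctacatctggctactgggtctCT
The 25 nt form was the most read, with 108 of 249 reads or 43.4% (37.1 to 49.8), followed by the 24 nt form with 80 or 32.1% (26.4 to 38.3). The mouse entry had 25 reads or 10.04% (6.60 to 14.5). Shorter forms had 19 reads at 22 nt, 15 at 21 nt and 2 at 20 nt, and a 19 nt entry had 0. Reads past the mouse entry were thus 188, or 75.5% of the arm, and shorter ones 36, or 14.5%. Of the table's entries, only the one named for Chinese hamster (cgr) holds the 25 nt form, while 29 entries hold the 24 nt form and 6 the mouse one.

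miR-221-3p showed the opposite picture as far as the table can show it. Its forms were read as follows, again 5′ to 3′, with no capitals because none extends past the mouse entry.
19 nt: agctacattgtctgctggg
21 nt: agctacattgtctgctgggtt
22 nt: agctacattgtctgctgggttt
23 nt, mouse entry: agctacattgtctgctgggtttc
The mouse entry was the most read form with 340 of 420 reads, 81.0% (76.9 to 84.6). The 22 nt form, 1 base shorter, had 71 reads or 16.9% (13.4 to 20.8), and the 21 and 19 nt forms had 5 and 4. The mean length was 22.8 nt for miR-221-3p and 24.0 nt for miR-222-3p. No entry of 24 nt or more exists for miR-221-3p and none of 26 nt or more for miR-222-3p, so longer reads of either had no entry of their own. The same holds for 20 nt reads of miR-221-3p. At the 4 lengths listed for both arms, 19, 21, 22 and 23 nt, miR-221-3p had 420 reads and miR-222-3p 59, a ratio of 7.12 (5.41 to 9.52).

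**Figure D3:**
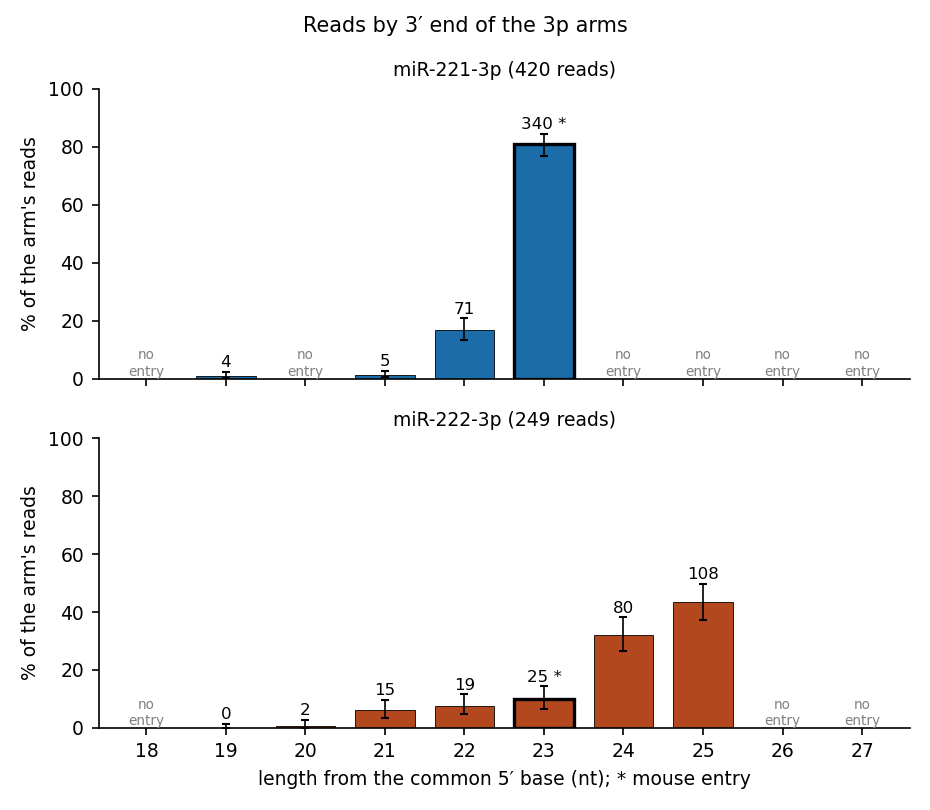
Share of each 3p arm's reads by length, counted from their common first base, with exact 95% intervals, read numbers above the bars and the mouse entry outlined and starred. miR-221-3p peaked at its 23 nt mouse entry and miR-222-3p at 25 nt, and lengths without an entry in the table are marked.

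The 5′ ends bear on the seed. All reads of both 3p arms, 420 and 249, began at the same base and kept the shared seed, but the table lists 0 entries that begin elsewhere on these arms, so reads with shifted starts had no entry of their own. For miR-221-5p, all 38 reads began at the mouse entry's first base, and an entry that begins 1 base earlier had 0 reads. Its 3′ ends were mixed. The 26 nt mouse entry held 23 of 38 reads, 60.5% (43.4 to 76.0), a 23 nt form 10, a 25 nt form 3, and the 22 and 21 nt forms 1 each.

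miR-222-5p was the arm where another start was read. A form that begins 1 base later and ends 2 bases later had 6 of the 8 reads, 75.0% (34.9 to 96.8), against 2 for the mouse entry, and 5 other listed forms had 0. The later start moves the seed by 1 base, as shown with the seed in capitals.
miR-222-5p, mouse entry: cTCAGTAGccagtgtagatcc
miR-222-5p, later start: tCAGTAGCcagtgtagatcctg
The interval spans 50%, so the more frequent start is not settled at this depth.

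The hairpins were folded with RNAfold to see how the ends face each other. Drosha leaves a short 3′ overhang, and its length here is how far the 3p end lies past the base paired with the 5p start in the predicted fold. For Mir221, the start of miR-221-5p and the 23 nt end of miR-221-3p gave 2 bases, and the 22 nt end gave 1. For Mir222, the start of the miR-222-5p mouse entry gave 1 base with the 21 nt end of miR-222-3p, 2 with the 22 nt end, 3 with the 23 nt end, 4 with the 24 nt end and 5 with the 25 nt end, the most read. The later start of miR-222-5p gave 1 more base in each case, up to 6. A 20 nt end, with 2 reads, gave 0 from the mouse entry's start and 1 from the later one. The reads do not show which 5p and 3p ends came from the same molecule.

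Mouse entries were compared with their arms across the library: 204 arms had at least 100 reads with end forms. The median share of an arm's reads on the mouse entry was 69.3%. miR-221-3p, at 81.0%, lay above 124 of these arms, and miR-222-3p, at 10.04%, above 25. The most read form was the mouse entry in 134 arms and a shorter form with the same start in 34. A form 1 base longer led in 22, a form 3 bases longer in 1 and a form with another start in 9. A form 2 bases longer led in 4 arms, namely miR-222-3p, miR-30a-5p, miR-30e-5p and miR-329-5p, of which the last 3 were named after their values were seen. How many end forms an arm shows depends on the forms that other species' entries record.

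**Figure D4:**
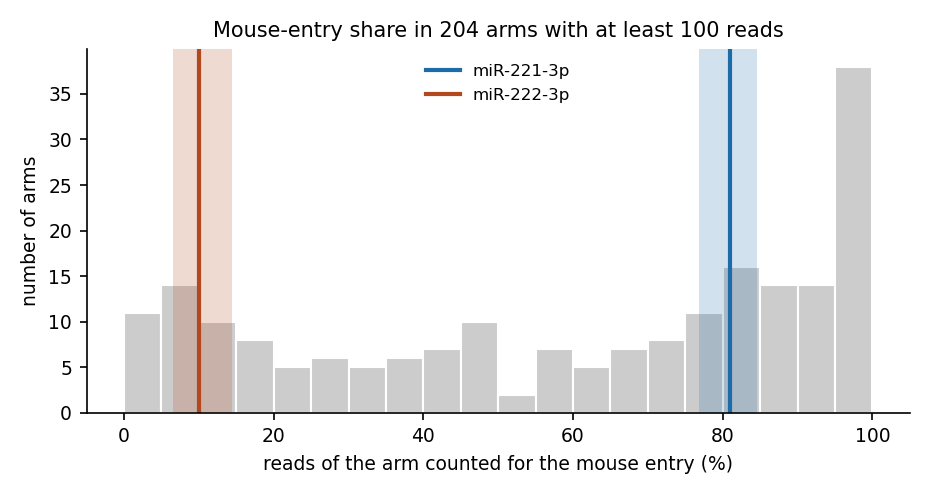
Number of arms by the share of their reads counted for the mouse entry, for 204 arms with at least 100 reads, with miR-221-3p (blue) and miR-222-3p (red) as lines and their exact 95% intervals shaded. miR-221-3p lay at 81.0% and miR-222-3p at 10.04%.

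Entries named for miR-221, miR-222, miR-222a or miR-222b came to 177 from 57 species codes, with 63 distinct sequences. Of these sequences 24 lie in the mouse hairpins and held all 715 reads. The other 39 differ from the mouse hairpins, as miR-222b of chicken and zebrafish does, and had 0 reads. The mouse sequence of miR-221-3p is shared by 34 entries, that of miR-221-5p by 9 and that of miR-222-3p by 6, while miR-222-5p is listed for mouse alone.

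Levels of miRNAs with related roles put the pair in context, here with end forms. Of 26 miRNAs linked to liver regeneration and hepatocyte proliferation, 24 had reads, with a median of 1730 reads, against a median of 0 over all other mouse sequences. Of these, 17 had more reads than miR-221-3p and 18 more than miR-222-3p. The list was led by miR-122-5p, the main hepatocyte miRNA, with 685102 reads. miR-378a-3p had 123839 reads, miR-127-3p 96047 and miR-26a-5p, which represses cyclins, 94134. miR-93-5p with 535 reads was closest to miR-221-3p, and miR-17-5p with 304, from the miR-17-92 cluster, was closest to miR-222-3p. miR-33-5p and miR-219a-5p, named after their values were seen, had 0. In this library the pair thus ranked below most other miRNAs of the list.

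Among 20 vascular and smooth muscle miRNAs, 19 had reads, with a median of 4746.5 reads, and 15 exceeded miR-221-3p and 16 miR-222-3p. miR-143-3p, a smooth muscle miRNA, led with 162854 reads, ahead of miR-126a-3p of endothelium with 134932. miR-145a-3p, the passenger strand of the same cluster as miR-143, had 356 reads and was closest to miR-221-3p, and miR-214-3p with 198 was closest to miR-222-3p. Within this list, the endothelium markers miR-126a-3p and miR-126a-5p had more reads than either member, and of the 4 smooth muscle and fibroblast markers miR-214-3p alone had fewer.

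With end forms, markers of leukocytes lay near or under the pair: 5 of 5 had reads, from 53 for miR-155-5p to 369 for miR-142a-5p. All 5 were below the 420 reads of miR-221-3p, and 1 was above the 249 of miR-222-3p. By mouse entries, 0 of the 5 were above miR-221-3p and 3 were above miR-222-3p. The 4 cholangiocyte and epithelium markers ranged from 110 for miR-200c-3p to 5791 for miR-200b-3p, and miR-429-3p with 312 was nearest to both members. Red cell markers ranged from 7 for miR-144-3p to 3066 for miR-486a-5p. Which cells gave the reads of miR-221 and miR-222 was not tested.

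On the X chromosome the 3p arms of the pair were among the more read miRNAs, as in the whole library. Outside the pair, 152 mouse sequences lie only in X-linked hairpins, and 54 of them, 35.5%, had reads with end forms. Over all 1963 mouse sequences, 595 had reads with end forms, and miR-221-3p and miR-222-3p ranked 129 and 155. Of the X-linked ones, 6 had more reads than miR-221-3p and 9 more than miR-222-3p. The highest was miR-532-5p with 7473 reads, followed by miR-98-5p of the let-7 family with 1616, miR-322-3p with 1416 and miR-542-3p with 962. A chosen list of 51 X-linked sequences, of which 3 also have a copy on another chromosome, had reads for 40 and a median of 27 reads. In this list 8 exceeded miR-221-3p and 10 miR-222-3p. Within the list, miR-501-3p with 395 reads was closest to miR-221-3p, and miR-374b-5p with 340 was closest to miR-222-3p. The list does not hold every X-linked arm, and arms outside it lay closer to miR-222-3p. By mouse entries, 5 of the 152 exceeded miR-221-3p and 21 exceeded miR-222-3p, so the place of miR-222-3p among X-linked miRNAs also depended on its longer forms.

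**Figure D5:**
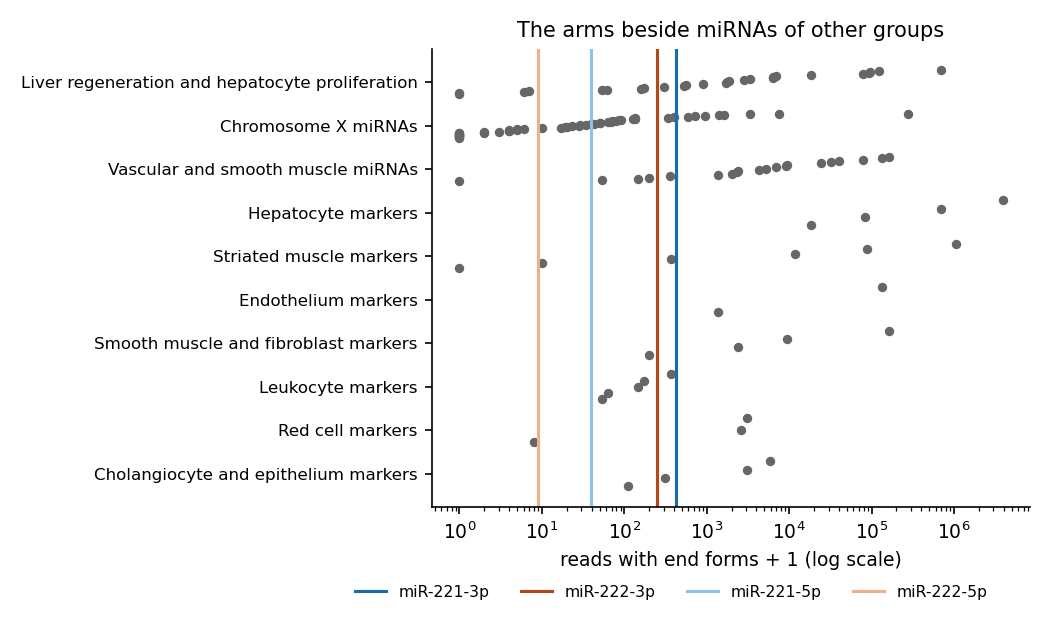
Reads with end forms plus 1 (log scale) of each miRNA in 10 lists (grey points, spread vertically for legibility, with some miRNAs in more than 1 list), with the 4 arms as lines. miR-221-3p at 420 reads and miR-222-3p at 249 lay under most points of the regeneration and vascular lists and over most leukocyte markers.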

How the data were processed

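Small RNA of mouse liver was ligated to adapters at both ends, amplified, size-selected and sequenced as single reads, per the labels' protocols, which name no molecular identifiers. Per the file headers, the authors deposited whole-number read counts, not normalized, of 1 cleaned library for entries of mature miRNAs. The mm10 build is named in the submitters' processing notes. For the counting program and its settings, nothing is given in the sources used here. The column matched the title of Cre-miR122 replicate 2 alone, 0 columns were unmatched, and the remaining libraries were not analysed here.

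Of 48885 entries, those of equal sequence had equal counts (0 exceptions), so each of 30721 distinct sequences was used once, with 8163802 reads. In 1726 nested pairs of entries that differ by up to 5 bases at the 3′ end and have reads, the longer had more reads in 809, so a read does not count for every entry it contains. Whether an entry takes only reads equal to it was not tested. End forms are other-species entries found exactly in GENCODE M21 hairpins (GRCm38, the same assembly as mm10) that overlap the mouse arm most and by at least 15 bases. Levels are reads per 1000000 mouse reads. Intervals of shares are Clopper-Pearson and those of ratios are exact binomial ones.

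Intervals and the assignment of end forms were tested on simulated data. The members and lists were chosen with earlier results of these data known. The miRNAs named are the 4 members, their end forms, the 2 sequences next above and below each, seed relatives, and the up to 4 highest and the nearest of each list. Where more than 2 sequences next to a member had equal reads, alphabetical order set which were named. Ratios other than those between the 3p arms, between the arms of a hairpin and between the 5p arms were added after the data were seen, as were the share of a hairpin's reads on its 3p arm and the ratio at shared lengths. The planned comparison of Cre-miR122 with Cre needs more libraries and was not run. The tools were RNAfold 2.7.2 and SciPy 1.17.1, with NumPy 2.4.6, pandas 2.3.3 and matplotlib 3.10.9 under Python 3.11.15.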

Additional observations from a re-analysis of the deposited data

Results flagged for a closer look

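Reads counted for entries of other species lie outside the mouse entries, and their number exceeded the floor of 3 reads for every arm. They came to 224 for miR-222-3p, 80 for miR-221-3p, 15 for miR-221-5p and 6 for miR-222-5p. For miR-222-3p and miR-222-5p they outnumbered the reads of the mouse entry, which were 25 and 2.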

How the results depend on the processing

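Levels in RPM moved with the total. For miR-221-3p the value was 41.6 over all sequences of the table and 121 without miR-148a-3p, and without miR-148a-3p it was 8.20 for miR-221-5p and 8.91 for miR-222-3p. These moves follow from the reads each total adds or removes. With end forms miR-222-3p had 31.0. The ratio of miR-221-3p to miR-222-3p was 1.69 with end forms taken from the hairpin, with the same 5′ start only, or by entry name, and 7.12 at the lengths listed for both. The settings that gave 1.69 all counted the same 420 and 249 reads, so they are not separate checks. The lengths listed for both leave out the 24 and 25 nt forms of miR-222-3p and no read of miR-221-3p. That value could therefore only be higher than 1.69. With the same 5′ start only, miR-222-3p had 124.5 reads per read of miR-222-5p, and the mouse entry held 100% of the reads of miR-222-5p, since its later-starting form is then left out. The ratio of miR-222-3p to miR-221-5p was 6.55 and that of the summed hairpins 1.78 with end forms. Of 44 alternative values, 31 stayed within the exact interval of the value reported and 13 did not. Several of the 44 count the same reads as another setting, and some intervals are wide because few reads were counted. The tally is therefore not a measure of how stable the results are. The total restricted to sequences with at least 10 reads could not be used for miR-222-5p, which has 2. No paired analysis was possible because only 1 library had counts here and no replicate number occurs in both groups. Comparisons of test tools, size factors and left-out replicates were not run for the same reason. Depth limits the 5p arms most, with 38 and 8 reads including end forms.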
